A study of Mus musculus with 21 samples.

Results

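Peyer's patch (PP) B cells labelled BCL2 HEL pos were set against mesenteric lymph node (mLN) B cells with the same label, over all genes of the count table. The members are 6 of the 21 libraries of the series, grouped by their labels: PP libraries 922, 926 and 950, and mLN libraries 922, 926 and 950. Values given in threes below follow that order. All came from C57BL/6 mice aged 8 to 12 weeks, and the cells had been sorted straight into TRIzol for bulk RNA sequencing. The labels expand neither HEL nor BCL2, and do not name a promoter, a transgene or the gate of the sort. A second set of HEL pos libraries without the BCL2 label, 3 from PP and 3 from mLN (a pool, 392 and 399), serves here as the comparison for BCL2. Mice of a group shared a cage, and whether a number stands for a single mouse is not stated, so p-values reflect how far these libraries vary, and part of that variation may be technical.

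Peyer's patches are groups of B cell follicles lodged in the small intestinal wall. Specialised epithelium over them passes gut antigens to the B cells below, and germinal centres there turn out B cells that switch to IgA under TGF-beta and retinoic acid signals. Mesenteric nodes collect the lymph that leaves the same gut, with the dendritic cells and soluble antigen it carries. BCL2 is the founding member of a family of proteins that set the threshold for programmed cell death, and its product protects lymphocytes from dying.

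Library totals ran from 7408837 to 11340876 counts, with 12747 to 13861 genes detected. A floor of 3 counts came to between 0.258 and 0.417 CPM (counts scaled to the library total by TMM, the unit of every level of a gene below), which covers counting error only. The 15 B cell markers were all present, at a summed 36349 to 48877 CPM in PP and 32334 to 34735 CPM in mLN libraries, here and in the marker sums below per the plain library total. T and NK cell transcripts came to 171 to 259.5 CPM in PP and 192 to 218 CPM in mLN, and macrophage and dendritic cell transcripts to 36.2 to 49.4 CPM in PP and 15.6 to 26.6 CPM in mLN. Y-linked transcripts (92.3 to 159.9 CPM) and Xist (142 to 278 CPM) were both present in each of the 6 libraries. The HEL pos libraries used for comparison differ in this, with Y-linked sums of 168, 0.445 and 0.869 CPM in PP and 145, 0 and 0 CPM in mLN (pool, 392 and 399). Bcl2 itself stood at 153, 142 and 141 CPM in PP and at 175, 134 and 158 CPM in mLN, a log2 difference of -0.10 ± 0.23 (SE) that did not pass the test. In the HEL pos libraries it lay between 49.8 and 90.2 CPM in PP and between 50.7 and 99.3 CPM in mLN, below each of the 6 BCL2 libraries.

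Of 11419 genes tested, 132 (1.16%) differed between PP and mLN at an adjusted p under 0.05 in edgeR's quasi-likelihood test with Benjamini-Hochberg adjustment. PP had 92 higher genes (0.806%) and 40 lower genes (0.350%), and 50 of the first and 18 of the second differed by more than 2-fold. For comparison, groups of 3 failed to overlap in 1000 genes with PP above mLN (8.76%) and in 1143 genes with PP below mLN (10.0%) of all those tested. The count depended on single libraries. It was 25 without mLN library 926, 49 without mLN library 950, 58 without PP library 926 and also without PP library 950, 69 without mLN library 922 and 98 without PP library 922. Of the 132, 21 stayed called in each of those 6 fits and 28 in none. The 21 were Skil, Scd1, Tnfrsf13c, Rab20, Camkk1, Txnrd1, Tle3, Pag1, Ifi30, Fmnl3, Rnf145, Hes1, Pla2g7 and the epithelial genes Fabp1, Fabp2, Krt8 and Rbp2 on the higher side, and Bcl2l11, Slamf7, Prkcd and Adam19 on the lower side, a set picked after its values were seen.

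**Figure D1:**
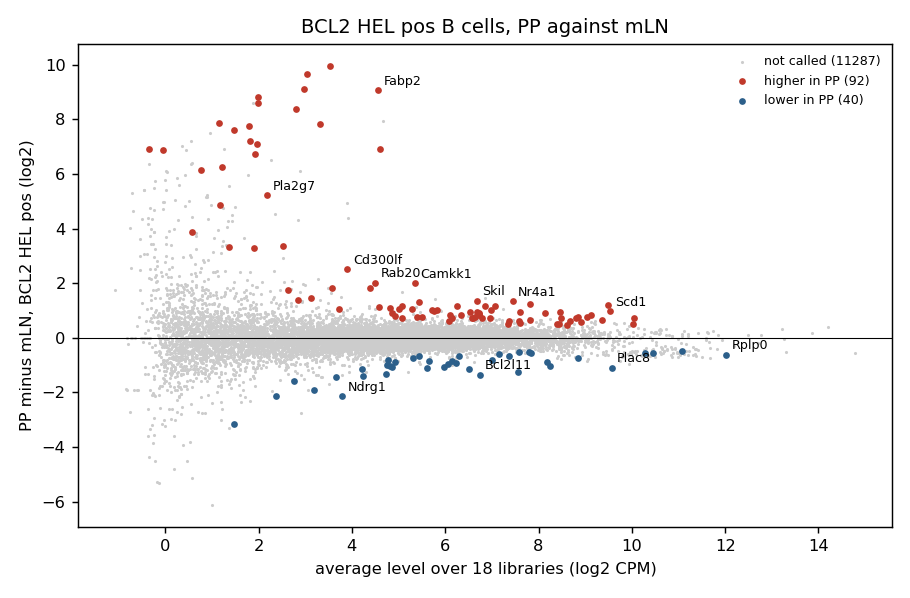
Each point is a gene, with its average level over the 18 fitted libraries (log2 CPM) on the horizontal axis and its PP minus mLN difference in BCL2 HEL pos cells (log2) on the vertical axis. The 92 higher genes split into a group of large differences at low levels, with Fabp2, and a group of smaller differences such as Skil and Rab20, while the 40 lower genes include Ndrg1 and the abundant Rplp0.

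The largest differences were in genes of the gut lining. Of 20 tested enterocyte markers 8 rose in PP and 0 fell, with groups that did not overlap in 14. For goblet, Paneth and enteroendocrine cells 1 of 6 tested markers rose. Among all genes tested 0.806% rose, and PP lay wholly above mLN in 8.76%. In mLN 10 of 21 enterocyte and 12 of 15 of these other markers measured had no count. Such a gene could pass the low-count filter only through other groups and could not be lower in PP. For those markers the direction was thus fixed beforehand, and the counts are no separate support. Fabp2, the intestinal fatty acid binding protein, had 3.66, 39.0 and 54.0 CPM in PP and 0, 0 and 0.138 CPM in mLN. Fabp1, its liver-type relative that enterocytes also make, had 1.77, 10.1 and 28.6 CPM in PP and 0, 0.121 and 0 CPM in mLN. Both were called (adjusted p = 0.00168 and 0.00364, edgeR's quasi-likelihood test), and the ratio of summed counts was 797 for Fabp2 (95% counting interval 143 to 31496) and 354 for Fabp1 (63.2 to 14020). Those intervals cover counting error only and not the spread among PP libraries. At such mLN levels both genes, and Apoa1 below, also passed the filter only through other groups. Their direction was nearly fixed beforehand, so the calls are no separate support. PP library 926 and PP library 950 held most of these transcripts and PP library 922 the least, and in none of the 3 did the values reach down to mLN.

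Rbp2, which carries retinol in enterocytes, had 1.51, 11.7 and 26.0 CPM in PP and no count in mLN. Against a floor of 3 counts over the mLN group, Rbp2 was at least 112-fold higher in PP, Krt20 at least 77.4-fold and Krt8 (keratins of simple epithelia) at least 43.7-fold. Reg3g, a secreted antibacterial lectin, was at least 52.2-fold higher, and Itln1, an intelectin of goblet and Paneth cells, at least 15.1-fold higher. Apoa1, an apolipoprotein, had 0.252, 9.95 and 11.0 CPM in PP and 0, 0 and 0.138 CPM in mLN. The calls for Krt20 and Apoa1 were lost on leaving out any one library except PP library 922 (adjusted p up to 0.184 for each). Itln1 was lost on leaving out any of the 6 (up to 0.251) and Reg3g without mLN library 926 or 950 (up to 0.0744).

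**Figure D2:**
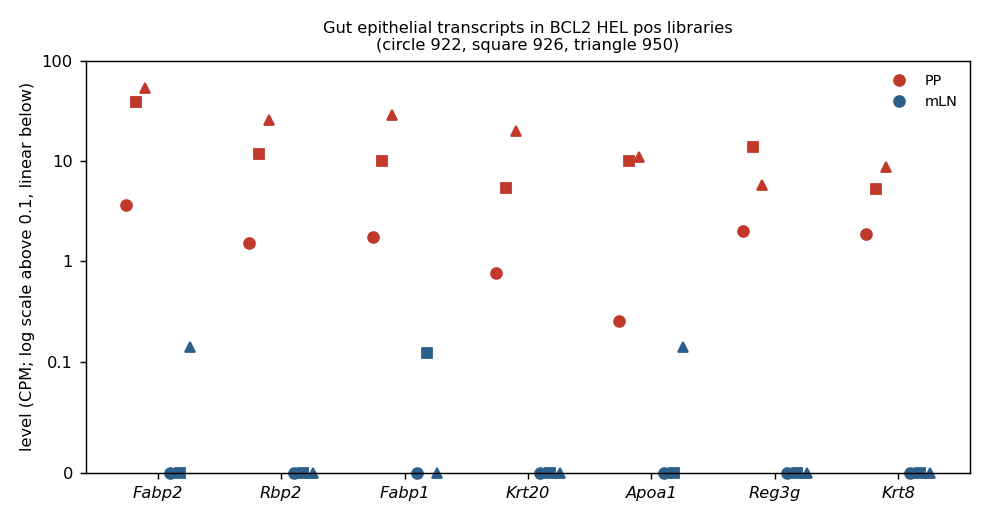
Levels (CPM, log scale above 0.1 and linear below) of 7 epithelial genes in the PP (red, left of each pair) and mLN (blue, right) BCL2 HEL pos libraries, with a symbol for each library number. The PP points of Fabp2 run from 3.66 to 54.0 CPM, library 922 is the lowest for all 7 genes, and most mLN points lie at 0.

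Summed over 21 enterocyte markers, transcripts came to 44.9, 164 and 237 CPM of the plain library total in PP and to 24.2, 15.1 and 21.9 CPM in mLN. In mLN 10 of the 21 were at 0 in all 3 libraries, among them Krt8, Krt20, Rbp2 and Reg3g, and in PP none was. Sums for goblet, Paneth and enteroendocrine markers were 11.6, 8.42 and 14.1 CPM in PP and 0.807, 0.223 and 0.675 CPM in mLN. In a bulk sample, fewer epithelial cells and less epithelial RNA per cell cannot be told apart. In all, 24 of the 92 higher genes had an mLN mean under 1 CPM, 15 of them with no count in mLN. The other 68 higher genes and the 40 lower genes, whose account follows, were looked at again with PP library 922 alone, the PP library with the lowest epithelial sum. Their median log2 difference was 0.87 with that library and 0.90 with all 3 for the higher genes, and -0.91 with that library and -0.94 with all 3 for the lower genes. Since these genes were called with groups that, but for 1 gene of the 132, do not overlap, their direction in a single library was fixed by that choice. The values were added after the data were seen, and with 1 PP library 24 genes were called, 19 higher and 5 lower.

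The higher genes described next, with Nr4a1 and Idi1 further on, include the 12 largest increases among called genes with an mLN mean of at least 5 CPM. Skil encodes SnoN, a repressor that binds SMAD proteins and is itself induced by TGF-beta. It had 137, 202 and 222 CPM in PP and 80.8, 54.8 and 83.9 CPM in mLN, so that the lowest PP library lay above the highest mLN library. The log2 difference was 1.36 ± 0.19 (SE, 3 libraries each; adjusted p = 0.00168, edgeR's quasi-likelihood test), and the gene lies on chromosome 3 from 31095058 to 31122577 (GRCm38). Rab20, a small GTPase of endosomes and phagosomes on chromosome 8 from 11453518 to 11478710, had 60.7, 53.1 and 73.0 CPM in PP and 14.9, 13.9 and 17.4 CPM in mLN. Its difference of 2.02 ± 0.29 (adjusted p = 0.0017, edgeR) was the only one among the 54 called genes named by rule to stay called under all 15 alternatives of the analysis. Camkk1, a kinase that acts downstream of calcium and calmodulin, had 97.3, 130.3 and 139 CPM in PP and 24.6, 30.1 and 36.6 CPM in mLN. It rose by 2.00 ± 0.31 (adjusted p = 0.00201, edgeR), and neither it nor Rab20 overlapped between the groups.

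Cd300lf, an immunoglobulin-like receptor that binds lipids, had 49.0, 35.2 and 53.4 CPM in PP and 10.3, 4.71 and 9.28 CPM in mLN, a log2 difference of 2.51 ± 0.44 (adjusted p = 0.00557, edgeR). Sema5a, a semaphorin, had 23.1, 14.0 and 17.0 CPM in PP and 6.40, 4.11 and 4.85 CPM in mLN. Neither overlapped between groups. Both calls ended without mLN library 926 (adjusted p = 0.0668 for Cd300lf and 0.0620 for Sema5a). Rab37, a GTPase of secretory vesicles, rose by 1.82 ± 0.41 and Trib1, a pseudokinase that directs C/EBP proteins to degradation, by 1.47 ± 0.33, but the call for Rab37 held only without PP library 950 (otherwise adjusted p up to 0.217) and that for Trib1 only without PP library 922 (otherwise up to 0.158). Emid1, which encodes a secreted protein with a collagen stretch, rose by 1.33 ± 0.24 and lost its call without mLN library 926 or 950 (up to 0.0741). Vpreb3, which binds immunoglobulin chains inside developing B cells, rose by 1.24 ± 0.23 and lost its call without mLN library 926 (0.0833).

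Ifi30 encodes GILT, the thiol reductase that unfolds antigens for presentation on MHC class II. It had 839.9, 699 and 516 CPM in PP and 315, 242 and 334 CPM in mLN, with no overlap, and rose by 1.21 ± 0.18 (adjusted p = 0.00201, edgeR). It was the 1 called gene of 22 tested for MHC and antigen presentation, against 0.806% of all genes tested that rose. Hes1, a transcriptional repressor induced by Notch, had 73.1, 59.3 and 66.8 CPM in PP and 39.8, 29.8 and 31.3 CPM in mLN, a log2 difference of 0.98 ± 0.16 (adjusted p = 0.00317, edgeR). Its levels did not overlap either. Txnrd1, the cytosolic thioredoxin reductase, rose by 1.03 ± 0.16, with 72.9 to 86.7 CPM in PP and 30.4 to 42.5 CPM in mLN.

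**Figure D3:**
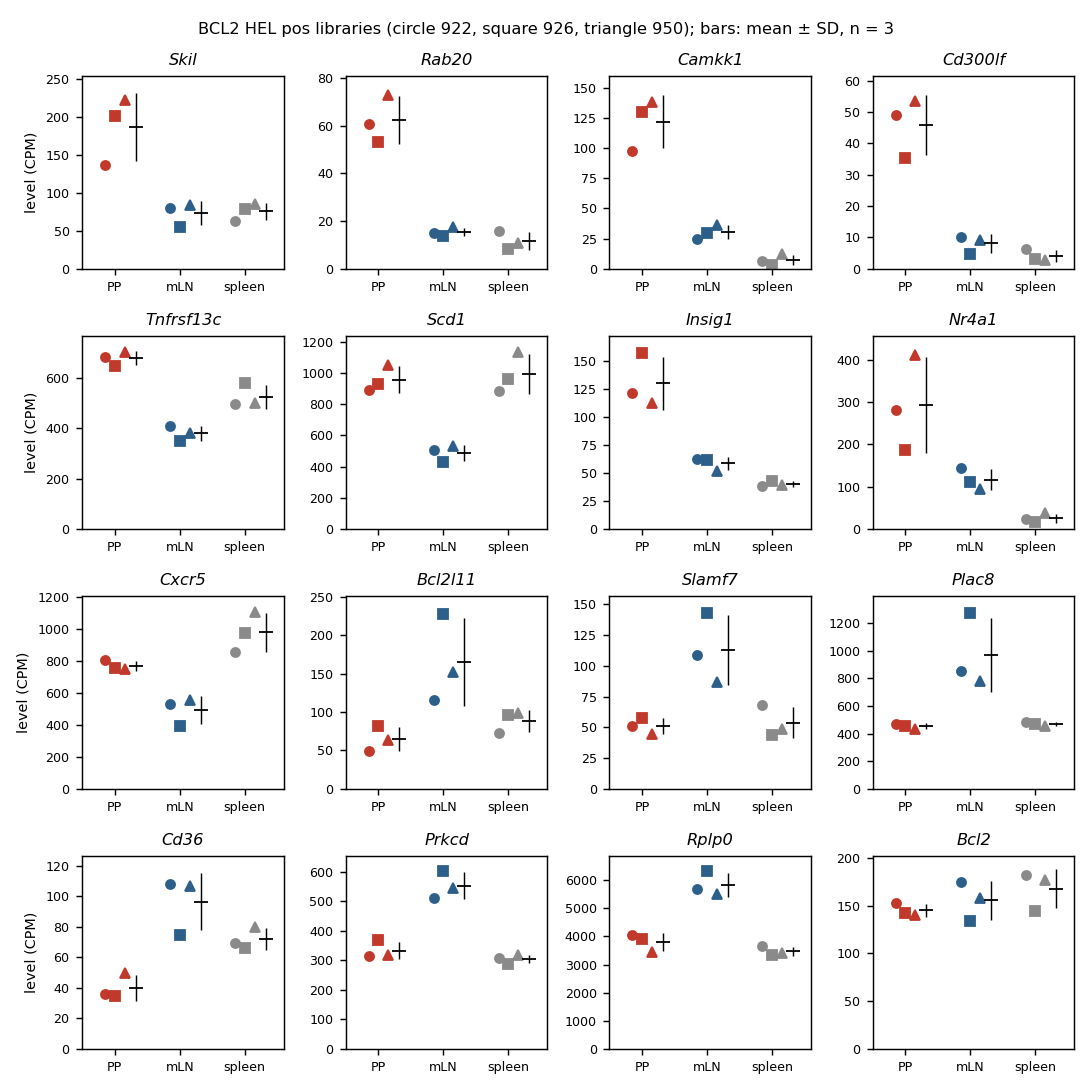
Levels (CPM, axes from 0) of 16 genes in BCL2 HEL pos libraries of PP (red), mLN (blue) and spleen (grey), one symbol per library, with the mean ± SD (n = 3) beside each group. The PP points lie above the mLN points in the first 9 panels, Skil through Cxcr5, and below them in the next 6, Bcl2l11 through Rplp0, while those of Bcl2 overlap.

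Several genes of sterol and fatty acid synthesis were higher in PP. Cells make cholesterol from acetyl-CoA through the mevalonate pathway, and when sterols run low the factor SREBP2 moves to the nucleus and switches on the enzymes and INSIG1, which holds SREBP back in the endoplasmic reticulum. Of 19 tested genes of the pathway 3 rose (Insig1, Idi1 and Sc5d) and 0 fell, against 0.806% of all genes tested that rose. The list's median log2 difference was 0.77, against 0.00 over all genes tested, 17 of 19 were positive, and PP lay wholly above mLN in 12 of 19 against 8.76% of all genes. With PP library 922 alone the list's median was 0.46, and 15 of the 19 had the same sign as with all 3 PP libraries.

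Insig1 had 122, 157 and 112 CPM in PP and 62.1, 62.0 and 51.8 CPM in mLN. Idi1, the isomerase that makes dimethylallyl diphosphate, had 159, 265 and 187 CPM in PP and 80.8, 108 and 84.6 CPM in mLN. Sc5d, a desaturase of the last steps to cholesterol, had 80.8, 89.4 and 104 CPM in PP and 50.5, 57.1 and 57.5 CPM in mLN. In all 3 genes the lowest PP library lay above the highest mLN library, and the log2 differences were 1.15 ± 0.25, 1.16 ± 0.26 and 0.73 ± 0.16 (adjusted p = 0.0264, 0.0305 and 0.0276, edgeR's quasi-likelihood test). Idi1 and Sc5d stayed called only without PP library 922, and Insig1 only without PP library 922 or 950 (adjusted p up to 0.146 for Idi1 and Insig1 and 0.129 for Sc5d). Hmgcs1, the HMG-CoA synthase (0.89 ± 0.28), and Sqle, squalene epoxidase (1.02 ± 0.34), did not pass. Mvk and Pmvk, the 2 mevalonate kinases, had log2 differences of -0.14 ± 0.25 and -0.06 ± 0.17.

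The promoters of the 3 called sterol genes are shown because they moved together, each as the 250 bases before and 50 after the annotated start in RefSeq (GRCm38.p6), 5′ to 3′ on the gene's strand. Capitals mark matches on either strand to CACGTG (an E-box) or CCAAT (the CCAAT box). TCACNCCAC, a spelling of the sterol regulatory element, was searched as well and is not in these windows. They lie at chr5:28071162-28071461 (Insig1, plus strand), chr13:8885356-8885655 (Idi1, plus strand) and chr9:42264251-42264550 (Sc5d, minus strand).
Insig1: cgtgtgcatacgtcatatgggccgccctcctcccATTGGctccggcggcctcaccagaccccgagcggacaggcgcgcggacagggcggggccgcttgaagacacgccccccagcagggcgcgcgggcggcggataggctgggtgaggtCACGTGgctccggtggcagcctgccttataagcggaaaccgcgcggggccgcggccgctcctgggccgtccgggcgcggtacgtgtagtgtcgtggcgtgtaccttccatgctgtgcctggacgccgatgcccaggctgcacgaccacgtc
Idi1: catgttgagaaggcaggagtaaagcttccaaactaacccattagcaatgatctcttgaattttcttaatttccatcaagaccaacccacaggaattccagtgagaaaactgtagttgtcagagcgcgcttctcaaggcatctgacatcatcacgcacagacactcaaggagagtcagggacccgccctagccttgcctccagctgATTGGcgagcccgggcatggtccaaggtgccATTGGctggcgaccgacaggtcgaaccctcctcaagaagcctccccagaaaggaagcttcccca
Sc5d: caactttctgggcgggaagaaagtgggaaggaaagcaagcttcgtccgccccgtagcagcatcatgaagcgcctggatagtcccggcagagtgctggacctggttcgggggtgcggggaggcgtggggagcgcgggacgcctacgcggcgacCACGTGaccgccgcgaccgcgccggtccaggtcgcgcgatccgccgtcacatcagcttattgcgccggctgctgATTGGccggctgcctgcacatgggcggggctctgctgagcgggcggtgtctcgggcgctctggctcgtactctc
Insig1 and Sc5d held 1 E-box and 1 CCAAT box each, and Idi1 held 2 CCAAT boxes. Of 32851 promoters in the table, 7.15% held CACGTG, 37.4% CCAAT and 1.24% TCACNCCAC. Of the 19 tested sterol genes 12 had a promoter entry, and 3, 12 and 1 of those held the same motifs in that order. A gene counted if any of its entries matched, whereas the shares over all promoters are per entry, so the measures differ. The motifs were chosen with the values known, none overlaps another here, and a match describes letters and not binding.

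Scd1 makes monounsaturated fatty acids from saturated ones and is a target of SREBP1. It had 893, 927 and 1054 CPM in PP and 503, 428 and 530.1 CPM in mLN, which did not overlap, a log2 difference of 0.98 ± 0.14 (adjusted p = 0.00168, edgeR). It was not on a list and is named because its call held without each of the 6 libraries in turn. Spleen BCL2 HEL pos cells had 882, 964 and 1134 CPM of Scd1, like PP and above mLN, whereas Insig1 in spleen had 38.2 to 43.0 CPM, below both gut tissues.

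TGF-beta drives IgA switching, and BAFF with APRIL sustains B cells in the gut wall. Of 19 tested genes of TGF-beta response and IgA switching 2 rose, Skil and Tnfrsf13c, and 0 fell, against 0.806% of all genes tested that rose. In this list 17 were positive, with a median log2 difference of 0.44 against 0.00 over all genes. PP lay wholly above mLN in 8 of the 19 and wholly below in 1, against 8.76% and 10.0% of all genes. Tnfrsf13c, the BAFF receptor on which mature B cells depend to survive, had 686, 649.6 and 704 CPM in PP and 409, 351 and 381 CPM in mLN. All PP libraries lay above all mLN libraries, and the difference was 0.84 ± 0.12 (adjusted p = 0.0017, edgeR; chromosome 15 from 82221743 to 82224369, GRCm38). Tgfbr1, the type I TGF-beta receptor, had 85.6, 124 and 96.6 CPM in PP and 44.8, 48.4 and 62.9 CPM in mLN, without passing (0.97 ± 0.25, adjusted p = 0.0720, edgeR). Ski, the relative of Skil, had 23.1, 24.2 and 22.1 CPM in PP and 12.9, 9.90 and 12.9 CPM in mLN (0.96 ± 0.24, adjusted p = 0.0604, edgeR). Tgfbr2, the type II receptor, differed by -0.12 ± 0.13.

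Receptors that place B cells in follicles rose by less. Of 23 tested genes of homing and egress 4 rose (Cxcr5, S1pr1, Gpr183 and Cd69) and 0 fell, with a median of 0.20. By sign 16 were positive and 7 negative, and 0.806% of all genes tested rose. Cxcr5, the receptor for the follicle chemokine CXCL13, had 806, 756 and 750.3 CPM in PP and 532, 394 and 554 CPM in mLN. S1pr1, which guides lymphocytes out of tissue towards sphingosine 1-phosphate, had 742, 693 and 618 CPM in PP and 456, 481 and 423 CPM in mLN. Gpr183 (EBI2), which draws activated B cells to the outer follicle, had 602, 581 and 590.2 CPM in PP and 413, 422 and 309 CPM in mLN. Cd69, an activation marker that pulls S1PR1 off the cell surface, had 201, 138 and 217 CPM in PP and 81.9, 84.9 and 106 CPM in mLN. None of the 4 overlapped between the groups. Their log2 differences were 0.64 ± 0.15, 0.59 ± 0.14, 0.63 ± 0.14 and 1.03 ± 0.24, with adjusted p = 0.0370, 0.0408, 0.0331 and 0.0351 in edgeR's test. The calls for Cxcr5 and Gpr183 ended on leaving out any of the 6 libraries (up to 0.301 and 0.194). S1pr1 stayed called only without PP library 950 (otherwise up to 0.200) and Cd69 only without PP library 926 (up to 0.217). Ccr6, which binds the CCL20 of follicle epithelium, had 389.5, 388 and 485 CPM in PP and 253, 233 and 285 CPM in mLN and did not pass (0.71 ± 0.22, adjusted p = 0.147, edgeR). Itgb7, a chain of the gut homing integrins, did not pass either (0.51 ± 0.15, adjusted p = 0.116). Ccr7 and Ccr9, receptors for node and small intestinal chemokines, differed by 0.13 ± 0.23 and -0.30 ± 0.44.

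Of 13 follicular B cell genes 3 rose (Cxcr5, S1pr1 and Icosl) and 0 fell, with 8 positive and 5 negative. Of 15 marginal zone genes 2 rose (Cr2 and Hes1) and 1 fell (Cd36), with 10 positive and 5 negative. PP lay wholly above mLN in 6 follicular and 4 marginal zone genes, and wholly below in 1 and 2. Over all genes tested 0.806% rose and 0.350% fell by the test. PP lay wholly above mLN in 8.76% of them and wholly below in 10.0%. Icosl, the ligand that supports follicular helper T cells, had 191, 149.6 and 197 CPM in PP and 117, 90.9 and 115 CPM in mLN. Cr2, the complement receptor CD21 that captures opsonised antigen, had 451, 547 and 479 CPM in PP and 287, 263 and 331 CPM in mLN. Neither overlapped, with log2 differences of 0.73 ± 0.15 and 0.75 ± 0.18 (adjusted p = 0.0178 and 0.0423, edgeR). Icosl stayed called without PP library 926 or mLN library 922 only (otherwise up to 0.184), and Cr2 in none of the 6 fits (up to 0.289). Ebf1, a transcription factor that sets B cell identity, rose by 0.53 ± 0.11 and lost its call without PP library 922 or 926 or mLN library 926 or 950 (up to 0.198).

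Some activation genes were called higher. Nr4a1, an orphan nuclear receptor induced within hours of antigen receptor signalling, had 282, 186 and 411 CPM in PP and 144, 110.4 and 94.8 CPM in mLN. The groups did not overlap, with PP library 950 the highest, and the difference was 1.33 ± 0.28 (adjusted p = 0.0178, edgeR). Its call ended without PP library 950 or mLN library 926 or 950 (up to 0.127). Cd83, a surface protein of activated B cells that stabilises MHC class II, had 1365, 1596 and 2018 CPM in PP and 1028, 1055 and 908 CPM in mLN. It rose by 0.74 ± 0.15 (adjusted p = 0.0178, edgeR) without overlap, and stayed called only without PP library 922 or 926 (otherwise up to 0.122). Egr2, another factor induced by antigen receptor signals, had 40.8, 45.6 and 83.8 CPM in PP and 44.1, 74.2 and 34.3 CPM in mLN, which overlap (0.16 ± 0.27, adjusted p = 0.910, edgeR).

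Of 21 immediate early genes 1 rose (Nr4a1), of 28 anergy and tolerance genes 2 rose (Nr4a1 and Inpp5d), of 26 antigen receptor signalling genes 2 rose (Malt1 and Inpp5d) and of 19 NF-kappaB genes 2 rose (Cd83 and Birc3). No member of these 4 lists was called lower, but 8, 10, 8 and 5 members were negative in that order. The positive members numbered 13, 18, 18 and 14, and the list medians lay between 0.08 and 0.25. Over all genes tested 0.806% were called higher. Inpp5d, the inhibitory lipid phosphatase SHIP1, had 549, 521 and 522 CPM in PP and 387, 345 and 418 CPM in mLN (0.47 ± 0.12, adjusted p = 0.0499, edgeR). Malt1, the paracaspase that links the antigen receptor to NF-kappaB, rose by 0.49 ± 0.12 and Birc3, a ubiquitin ligase induced by NF-kappaB, by 0.60 ± 0.14. The calls for Inpp5d and Malt1 ended on leaving out any library (up to 0.383 and 0.240), and that for Birc3 held without mLN library 950 alone (otherwise up to 0.374). Slc2a1, the glucose transporter GLUT1, was the only riser of 20 glycolysis genes, at 0.71 ± 0.17, and stayed called without PP library 922 only (otherwise up to 0.240). No germinal centre gene of 18 tested was called. Bcl6, the germinal centre repressor, had 93.5, 107 and 100.4 CPM in PP and 79.8, 68.0 and 73.5 CPM in mLN, without overlap but short of the threshold (0.44 ± 0.16, adjusted p = 0.245, edgeR).

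**Figure D4:**
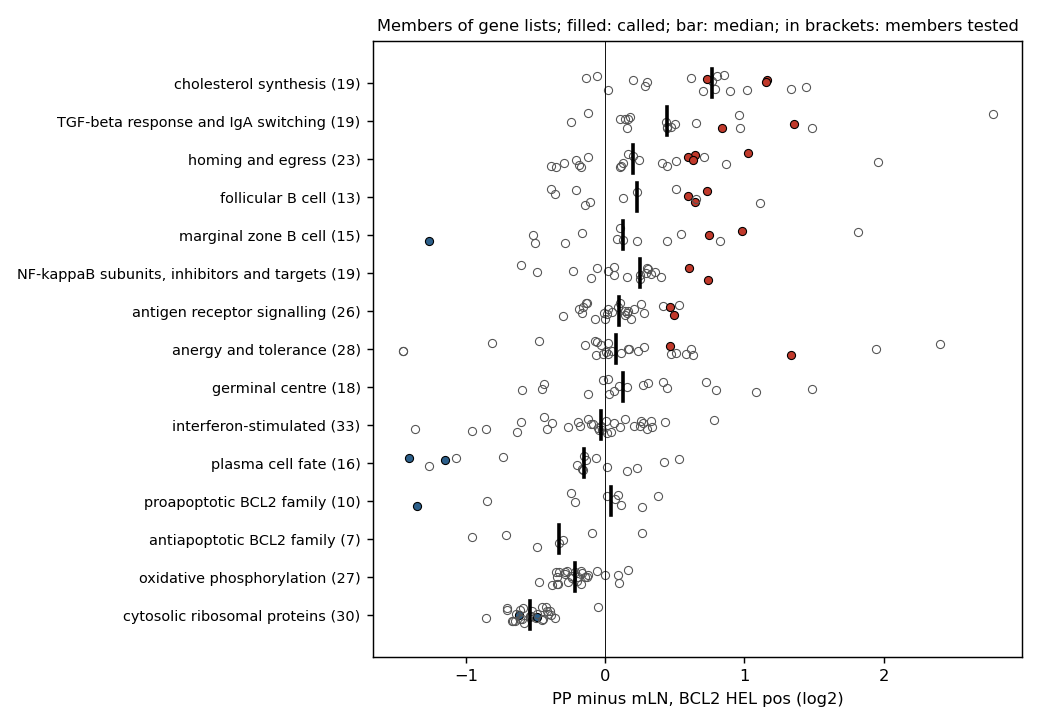
PP minus mLN differences in BCL2 HEL pos cells (log2) for the tested members of 15 gene lists, with called members filled (red higher, blue lower), a bar at each list's median and the number tested in brackets. The cholesterol list has its median at 0.77 and the cytosolic ribosomal list at -0.54, with all 30 ribosomal members left of 0.

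Bcl2l11 was the most strongly reduced of the lower genes that held without each library. It encodes BIM, the BH3-only protein that BCL2 binds and that kills B cells which recognise self. It had 49.4, 81.2 and 63.6 CPM in PP and 116, 228 and 152 CPM in mLN, so that the highest PP library lay below the lowest mLN library. The difference was -1.35 ± 0.21 (adjusted p = 0.00201, edgeR; chromosome 2 from 128126038 to 128162547, GRCm38). It was the 1 gene called of 10 proapoptotic family members, against 0.350% of all genes tested that fell. Bmf, another BH3-only gene, had 47.8, 59.6 and 53.9 CPM in PP and 90.2, 104 and 96.5 CPM in mLN, also without overlap (-0.85 ± 0.22, adjusted p = 0.0741, edgeR). Bax, an effector of the family, differed by 0.01 ± 0.16. None of 7 antiapoptotic members was called, and 6 of 7 were negative, among them Bcl2a1d at -0.71 ± 0.26 and Mcl1 at -0.33 ± 0.26. Bcl2a1 copies are near-identical and reads may be split among them.

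Of 16 plasma cell fate genes 2 fell and 0 rose, with 11 negative and 5 positive, against 0.350% of all genes tested that fell. Slamf7, a surface receptor of plasma cells and activated lymphocytes, had 50.7, 57.4 and 44.2 CPM in PP and 109, 143 and 87.1 CPM in mLN. It fell by 1.15 on the log2 scale (SE 0.18, adjusted p = 0.00201, edgeR) with no overlap. Sdc1, the syndecan CD138 of plasma cells, had 6.18, 7.26 and 11.2 CPM in PP and 14.5, 26.9 and 24.8 CPM in mLN, also apart, at -1.41 ± 0.29 (adjusted p = 0.0179, edgeR). Sdc1 stayed called only without PP library 950 or mLN library 922 (otherwise up to 0.146). Prdm1, Xbp1 and Irf4, the transcription factors of plasma cells, differed by 0.42 ± 0.55, 0.16 ± 0.15 and -0.14 ± 0.16. Plasma cell markers summed to 384 to 488 CPM in PP and 443 to 522 CPM in mLN.

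Cd36, a scavenger receptor for lipids that marginal zone B cells carry, had 35.6, 34.4 and 49.8 CPM in PP and 108, 74.9 and 106 CPM in mLN. The groups were apart by -1.26 ± 0.23 (adjusted p = 0.00709, edgeR), a call that ended at 0.0509 without PP library 926. Plac8, a small cysteine-rich protein of leukocytes, had 472, 456 and 430.1 CPM in PP and 849, 1275 and 779 CPM in mLN (-1.10 ± 0.19, adjusted p = 0.00539, edgeR). Rgs10, a brake on G protein signals, had 31.8, 44.2 and 36.6 CPM in PP and 69.8, 103 and 67.7 CPM in mLN (-1.10 ± 0.20, adjusted p = 0.00641). Grn, the secreted lysosomal protein progranulin, had 141, 169.6 and 169 CPM in PP and 269, 365 and 350.0 CPM in mLN (-1.04 ± 0.19, adjusted p = 0.00641). None of these overlapped, mLN library 926 was the highest for Plac8, Rgs10 and Grn, and each of those 3 calls ended without it (adjusted p = 0.0620, 0.0801 and 0.0620). The fit without that library lost 107 of all 132 calls, so such a loss is not particular to these genes.

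Other lower genes were Tmem154 (-1.09 ± 0.20), Lcmt1, a methyltransferase of phosphatase 2A (-1.15 ± 0.21), Glrx, glutaredoxin (-1.03 ± 0.19), Ticam2, an adaptor of Toll-like receptor 4 (-1.09 ± 0.27), and Rgl1, an exchange factor for Ral GTPases (-1.33 ± 0.32). Lcmt1 lost its call without mLN library 926 (0.0741), Tmem154 without that or PP library 926 (up to 0.0999), and Glrx without those or PP library 950 (up to 0.0942). Ticam2 and Rgl1 lost theirs without any of the 6 (up to 0.244 and 0.151). Ndrg1, a stress-induced gene, had 0.631, 3.90 and 4.04 CPM in PP and 7.23, 14.7 and 16.8 CPM in mLN, lower by -2.15 ± 0.41 on the log2 scale, and lost its call without mLN library 926 or 950 (up to 0.0704). Lef1, a transcription factor of the Wnt pathway, had 0.631 to 1.29 CPM in PP and 3.06 to 4.85 CPM in mLN, and Nrgn, a calmodulin-binding protein, 4.04 to 4.39 CPM in PP and 7.92 to 15.6 CPM in mLN. Lef1 was lost without any library (up to 0.178) and Nrgn held without mLN library 922 only (otherwise up to 0.349). S100a10, the annexin A2 partner, had 198, 198 and 219.9 CPM in PP and 327, 465 and 337 CPM in mLN (-0.87 ± 0.21), and lost its call without any library (up to 0.329). Prkcd, a protein kinase C needed for B cell tolerance, had 314, 367 and 317 CPM in PP and 512, 601 and 545 CPM in mLN (-0.73 ± 0.12, adjusted p = 0.00437, edgeR), and kept its call without each.

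Cytosolic ribosomal protein genes had lower levels in PP. Of 30 tested 2 fell, Rplp0 and Rps2, against 0.350% of all genes tested. All 30 were negative, with a median of -0.54 (-0.53 with DESeq2's size factors in place of TMM). In 28 of 30 all PP libraries lay below all mLN libraries, against 10.0% of all genes. Rplp0 had 4062, 3917 and 3438 CPM in PP and 5682, 6331 and 5505 CPM in mLN (-0.62 ± 0.13, adjusted p = 0.0183, edgeR). Rps2 had 2200.3, 2081 and 2089 CPM in PP and 2883, 3209 and 2860.1 CPM in mLN (-0.49 ± 0.11, adjusted p = 0.0370), apart like Rplp0. Rplp0 stayed called only without PP library 922 or mLN library 950 (otherwise up to 0.146) and Rps2 in none of the fits (up to 0.251), and reads of ribosomal protein genes can be shared with pseudogenes. With PP library 922 alone the median of the 30 was -0.30, with 29 negative. Of 27 oxidative phosphorylation genes none was called, with a median of -0.21 and 15 that lay wholly below mLN. Phgdh, the first enzyme of serine synthesis, fell by 0.53 on the log2 scale (SE 0.12), from 22 genes of amino acid supply, and stayed called without PP library 950 only (otherwise up to 0.251). No gene of 33 interferon-stimulated, 26 DNA replication or 25 mitosis genes was called.

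Spleen BCL2 HEL pos libraries, 3 in number, show where PP and mLN lay relative to a tissue away from the gut. Of the 68 higher genes the spleen mean lay between the gut tissues in 36, above both in 13 and below both in 19. Of the 40 lower genes it lay between them in 23, below both in 16 and above both in 1. For 31 of the 40 lower genes every mLN library was above every spleen library, and for 12 every PP library was below. For 38 of the 68 higher genes every PP library was above every spleen library, and for 33 every mLN library was below. These genes were chosen by their PP to mLN difference. Such shares over all genes tested were not computed, so the counts only describe the chosen genes. Bcl2l11 in spleen had 72.2, 95.5 and 98.4 CPM, between both gut tissues by its mean. Camkk1 had 6.22, 3.37 and 12.2 CPM and Nr4a1 22.7, 15.7 and 36.4 CPM in spleen, below every PP and mLN library, while Cxcr5, at 857, 975 and 1103 CPM, lay above every PP and mLN library.

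The same contrast in HEL pos cells without the BCL2 label called 1012 of the 11419 genes (8.86%), 610 higher and 402 lower in PP. Enterocyte transcripts in those HEL pos libraries summed to 999, 292 and 1016 CPM in PP and 43.5, 45.2 and 47.4 CPM in mLN (pool, 392 and 399), so each PP sum lay above that of every BCL2 HEL pos library. Goblet, Paneth and enteroendocrine sums there were 96.3, 23.6 and 517 CPM in PP and 1.18, 0.770 and 0.392 CPM in mLN. The part of these transcripts, and of the Y-linked ones, in the comparison of both sets was not tested. Of the 132 genes of BCL2 HEL pos cells 94 were called there too, 71.2% of the 132 and 9.29% of the 1012, and all 94 had the same sign. The 68 higher genes had a median log2 difference of 0.90 in BCL2 HEL pos and 0.73 in HEL pos cells, with the same sign in 66. The 40 lower genes had medians of -0.94 in BCL2 HEL pos and -0.82 in HEL pos cells, with the same sign in all 40. Over all tested genes 62.0% had the same sign, and the median absolute log2 difference was 0.20 in BCL2 HEL pos and 0.29 in HEL pos cells.

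**Figure D5:**
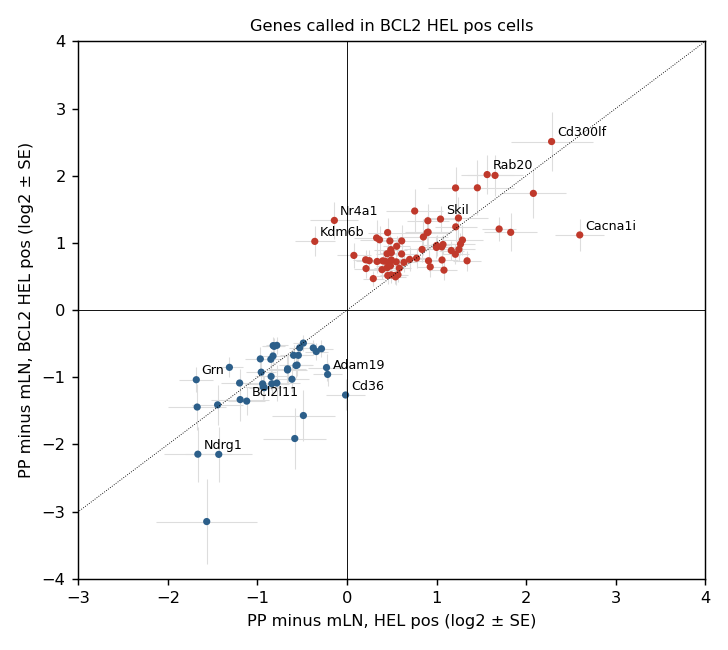
PP minus mLN differences (log2 ± SE) of genes called in BCL2 HEL pos cells, with HEL pos cells on the horizontal and BCL2 HEL pos cells on the vertical axis; the 24 genes with an mLN mean under 1 CPM are left out, and 1 gene lies beyond the axis. Most of the 107 points lie near the dotted line of equal differences, and Nr4a1 and Kdm6b lie left of 0.

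The difference between the contrasts was tested as an interaction, (PP minus mLN in BCL2 HEL pos) minus (PP minus mLN in HEL pos). 1 gene of 11419 passed (0.00876%), and 1132 had an unadjusted p under 0.05. Cd63, a tetraspanin of late endosomes and secreted vesicles, had 3.79, 4.98 and 6.37 CPM in PP and 3.34, 3.02 and 2.91 CPM in mLN with BCL2. In HEL pos cells (pool, 392 and 399) it had 11.8, 6.41 and 7.62 CPM in PP and 39.2, 47.0 and 51.2 CPM in mLN. The interaction was 3.12 ± 0.50 (adjusted p = 0.0391, edgeR's quasi-likelihood test), with all mLN libraries of HEL pos cells far above the rest. Within the BCL2 libraries the PP to mLN difference did not pass (0.72 ± 0.37, adjusted p = 0.470). The interaction of Cd63 kept its call without PP library 922 of the BCL2 set, the HEL pos PP pool or HEL pos PP library 392, and lost it without any one of the other 9 libraries (adjusted p up to 0.332).

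Other genes with the smallest interaction p stayed short of the threshold. Ccl4, a chemokine of activated B cells, had 29.4, 36.9 and 48.2 CPM in PP and 24.3, 48.4 and 15.5 CPM in mLN with BCL2, and 33.9, 18.3 and 50.5 CPM in PP and 126, 178 and 196 CPM in mLN without it (interaction 2.66 ± 0.54, adjusted p = 0.140, edgeR). Axl, a receptor tyrosine kinase that dampens innate signals and binds a bridge to dying cells, had 37.4, 84.7 and 77.0 CPM in PP and 81.9, 159.7 and 112 CPM in mLN with BCL2. Without BCL2 it had 42.7, 30.8 and 43.8 CPM in PP and 212, 228 and 193 CPM in mLN, and the interaction was 1.60 ± 0.34 (adjusted p = 0.147). Axl thus had a called PP to mLN difference of -2.43 ± 0.25 in HEL pos cells and one of -0.83 ± 0.24 that was not called in BCL2 HEL pos cells (adjusted p = 0.120), and the test of their difference did not pass. The lack of a call for Axl in BCL2 HEL pos cells depended on the analysis. It was called there under 3 of the 15 alternatives and was lower in PP under all 15. Jup, plakoglobin, showed -0.53 ± 0.47 with BCL2 and -1.99 ± 0.42 without it (interaction adjusted p = 0.458). Nfat5, a factor of osmotic stress, had an interaction of -1.86 ± 0.36 (adjusted p = 0.140), with 17.2 to 22.7 CPM in PP and 19.7 to 33.4 CPM in mLN with BCL2, against 25.9 to 44.0 CPM in PP and 11.5 to 13.6 CPM in mLN without it.

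Of the 132 genes 20 had an interaction p under 0.05 before adjustment and 0 after it in edgeR, and 3 had opposite signs in HEL pos cells: Nr4a1, Kdm6b and Gas7. Nr4a1 in HEL pos cells had 265, 239 and 309 CPM in PP and 238, 254 and 404 CPM in mLN, which overlap, and an interaction of 1.48 ± 0.38 (adjusted p = 0.244). Kdm6b, a demethylase of histone H3, had 60.3, 74.9 and 98.2 CPM in PP and 45.6, 37.1 and 32.4 CPM in mLN with BCL2, and 63.8, 62.0 and 49.5 CPM in PP and 60.2, 72.4 and 92.6 CPM in mLN without it (interaction adjusted p = 0.181). Gas7 had at most 1.26 CPM in any PP library and no count in mLN with BCL2. Cd36 differed by -0.02 ± 0.22 in HEL pos cells, where it had 169, 255 and 251 CPM in PP and 147, 251 and 284 CPM in mLN, above all BCL2 libraries (interaction -1.25 ± 0.32, adjusted p = 0.237). Kdm6b and Gas7 are named after their values were seen.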

How the data were processed

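Bulk RNA sequencing counts per gene were used as deposited by the authors in 1 table. STAR, HTSeq, DESeq2 and the mm10 build are named per the submitters' processing notes, without versions or roles. The members and gene lists were chosen with earlier results of these data known. In R 4.3.3, edgeR 4.0.16 (filtering by group, TMM scaling, quasi-likelihood fit) was run on 18 libraries in 6 groups of 3, with 12 residual degrees of freedom. Genes were called at a Benjamini-Hochberg adjusted p under 0.05 over the 11419 genes tested of 23337. The procedure was tested on simulated data. DESeq2 1.42.0, no filter, a fold threshold and single libraries left out were alternatives.

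Named genes were the called genes with average log2 CPM of at least 3 and no overlap: the 12 highest and 12 lowest with at least 5 CPM in the lower group and the 6 highest and 6 lowest below that. Added were up to 4 called members per list, 13 fixed genes and the 10 smallest interaction p. Krt20, Reg3g, Scd1, Txnrd1, Prkcd, Adam19 and list members that did not pass were named after their values were seen. Gene positions are from GENCODE M21 (GRCm38). Some genes of the lists are not reported here by name.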

Additional observations from a re-analysis of the deposited data

Results flagged for a closer look

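Cd63 differed between the contrasts by the test of the difference itself, with an interaction of 3.12 on the log2 scale. Its PP minus mLN difference was 0.72 in BCL2 HEL pos cells and -2.41 in HEL pos cells.

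In 70 of the 11419 genes tested (0.613%), every PP library lay on one side of every mLN library in BCL2 HEL pos cells and on the opposite side in HEL pos cells. Among the 10 genes with the smallest interaction p, which were thereby chosen for such a difference, these were Cd63 and 4 others. The PP minus mLN differences in BCL2 HEL pos cells were 0.50 for Mettl13, 0.40 for Ltv1, 0.33 for Mars and -0.63 for Eif2c1. In HEL pos cells they were -0.77, -0.50, -0.50 and 0.55 in the same order of genes. The interaction did not pass for any of these 4 (adjusted p from 0.140 to 0.142, edgeR's quasi-likelihood test).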

How the results depend on the processing

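The count of 132 called genes became 241 with DESeq2, 395 without the low-count filter, 8 against a fold of 1.5, 24 with PP library 922 alone and 25 to 98 with single libraries left out. It stayed within 1.5 times of 132 at 131 with DESeq2's size factors in edgeR, 191 with the 9 BCL2 HEL pos libraries, 138 with the 6 compared and 185 without HEL pos PP library 399 and the pool. The interaction count of 1 became 24 with DESeq2, 111 without the filter, 0 against a fold of 1.5, 0 without HEL pos PP library 399 and the pool, and 0 to 8 with single libraries left out. The cause was not tested. The 54 called named genes kept their direction in each alternative run for them, 15 for all but Apoa1 and 13 for Apoa1, which follows in part from calling genes whose groups do not overlap. A replicate block by library number gave 480 calls and 13 for the interaction. The labels do not state that the numbers are pairs, so the main fit left them unpaired. With group means removed, same-numbered PP and mLN libraries correlated at 0.197, 0.0638 and 0.101, and different-numbered ones at -0.137 to 0.0502. Each library correlated best with its own number, a hint of pairing from the data and not the design. Pairing was not tested further. The calls above, also those with libraries left out, come from the unpaired fit.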
